A study of Mus musculus with 6 samples.

Results

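Genes that modify histones or remodel nucleosomes were described in mouse prefrontal cortex. They were chosen by name and position: protein-coding genes on chromosomes 1 to 19 with a mean normalized count of at least 10 over the 6 samples, whose symbol starts with Kmt2, Kmt5, Kdm, Smarc, Arid, Setd, Ehmt or Ezh, or is Chd or Hdac followed by digits. Of the 17889 rows of the deposited table, 85 had such a symbol and 76 met the rule. The other 9 were 6 genes of the sex chromosomes, the pseudogenes Smarca5-ps and Kdm4dl, and Arid3c, whose mean of 3.94 lay under the minimum. The lowest of the 76 was the demethylase Kdm4d, with a mean of 35.1.

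DNA in the nucleus is wrapped around histones, and the tails of these proteins carry methyl and acetyl groups that enzymes add and remove. SET domain methyltransferases write methyl groups on lysines of histones H3 and H4, lysine demethylases (the Kdm genes) take them off, and histone deacetylases (the Hdac genes) remove acetyl groups. Remodellers of the SWI/SNF, CHD and ISWI families use ATP to move or evict nucleosomes. Mutations in many of these genes cause neurodevelopmental disorders in humans, and in the brain the make-up of the SWI/SNF complex shifts as neural progenitors become neurons.

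The mice were of the strain C57BL/6J at postnatal day 28. The control group, WT, had 3 samples, and the other group, called Hetero in the titles with the genotype Cyfip2 mutant, had 3 samples. Cyfip2 encodes a subunit of the WAVE complex, which drives actin assembly. The labels give neither the part of Cyfip2 that is mutated nor the sex nor whether each sample is a different animal. The p-values therefore reflect only how these samples vary, possibly for technical reasons. The comparison addresses how transcripts of the juvenile prefrontal cortex differ between the genotypes.

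Values are the authors' normalized counts, which are scaled between samples and summed to 29879143 to 30735443 per sample. The low values of each column gave an estimated 25500000 to 43900000 reads per library, with WT sample 3 the shallowest and Hetero sample 3 the deepest. The transcript of the mutated gene separated the groups: Cyfip2 read 31933, 30496 and 27503 in WT and 20959, 21237 and 18285 in Hetero. It differed by -0.57 on the log2 scale (standard error 0.07), with a limma adjusted p of 0.31, and the exact permutation p was 0.1, the smallest that 3 against 3 samples allow. Excitatory neuron markers were abundant in every library, among them the vesicular glutamate transporter Slc17a7 at 54478 to 58032 in WT and 51008 to 54123 in Hetero, where the groups did not overlap, and the cortical transcription factor Tbr1 at 3830 to 3869 and 3829 to 3939. The proliferation marker Mki67 stayed between 42.1 and 53.6.

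The chromatin genes lay higher and were longer than the typical tested gene. Their mean normalized counts ran from 35.1 to 24594 with a median of 1686, against a median of 651 over the 14969 tested genes. Their principal transcripts had a median length of 5270 bases, against 3034 over all tested genes, and ran from 1660 bases to the 19823 bases of Kmt2d. Since longer transcripts give more reads, levels of different genes were compared as normalized counts per kilobase of the principal transcript. On that scale the CHD remodeller Chd3 was the most abundant at 3387 per kilobase, and the deacetylase Hdac11 stood at 1978 and the SWI/SNF scaffold Smarcc2 at 1908. At the low end stood Kdm4d at 13.0, Chd7 at 35.9 and Arid3a at 36.1 per kilobase. With the length of all annotated exons in place of the principal transcript, Chd3 stayed the highest and Kdm4d the lowest, but Smarcc2 (1558) lay above Hdac11 (1363), and Ezh2 and then Chd7 (26.6) came next above Kdm4d. The highest gene was the same by both lengths in 8 of 11 roles, as was the lowest.

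**Figure D1:**
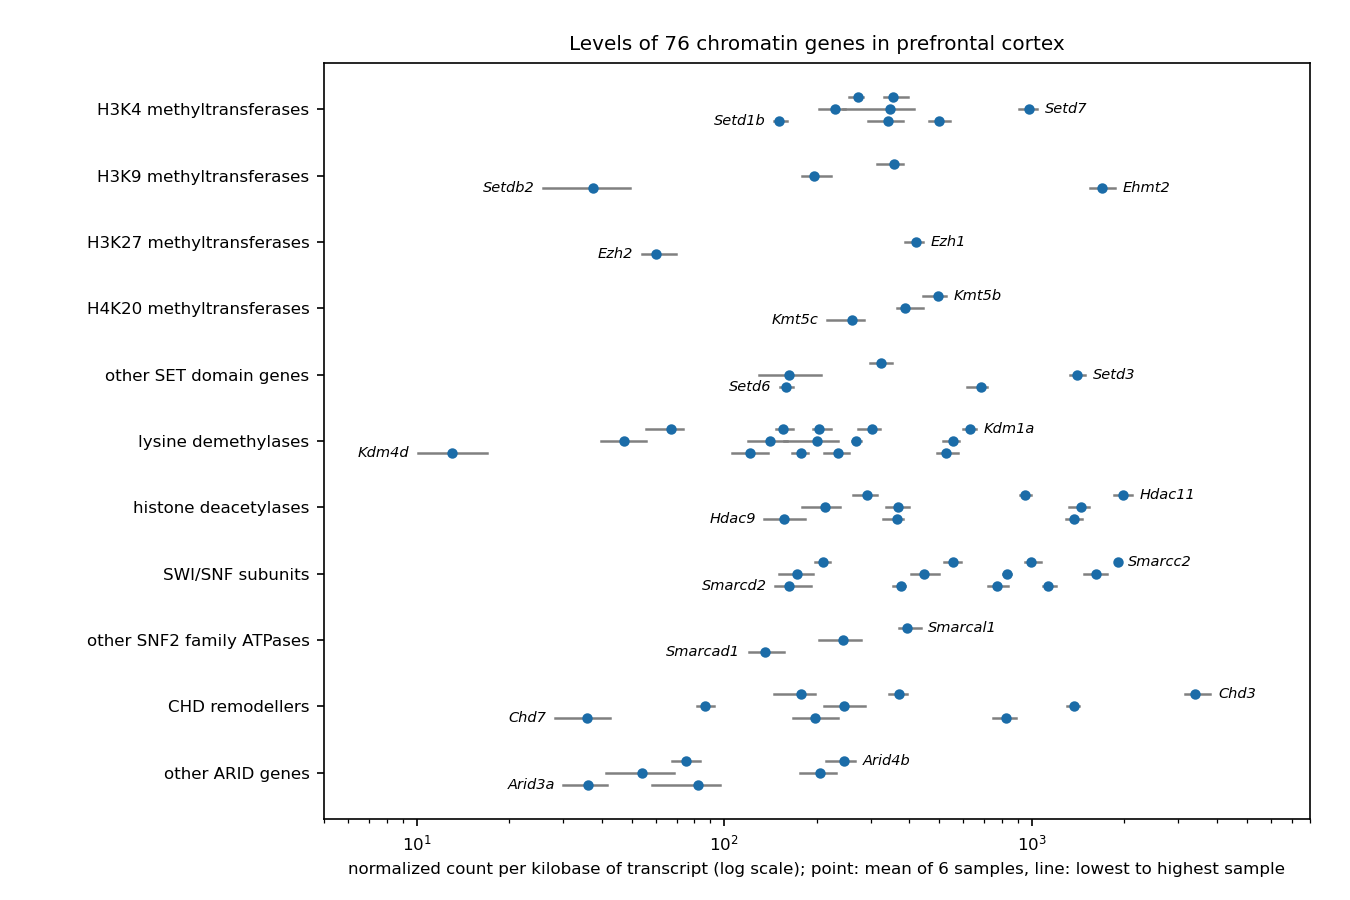
Level of each of the 76 chromatin genes by role, in normalized counts per kilobase of transcript on a log axis; points are means of 6 samples, lines run from the lowest to the highest sample, and the highest and lowest gene of each role by the principal transcript length is named. Chd3 (3387 per kilobase) stands at the top and Kdm4d (13.0) at the bottom.

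Between the genotypes these genes differed little. In limma, 0 of the 76 had a Benjamini-Hochberg adjusted p under 0.05 over all tested genes, as did 0 of the 14969 (0%), and every adjusted p among the 76 was 1. At an unadjusted p under 0.05 there were 3, all lower in Hetero (Chd7, Ezh1 and Chd6), which is 3.95% beside 3.83% of all tested genes. Among all tested genes 2.17% were lower and 1.66% higher by that measure. The Hetero values lay wholly outside the WT values for 7 (9.21%, beside 8.72% of all tested genes). Of these, Chd7, Ezh1, Chd5 and Smarcc1 were lower, a direction found in 4.32% of all tested genes, and Smarca2, Kdm3b and Setd6 were higher, found in 4.4%. Both shares were near the background. By fitted value 37 were higher and 39 lower, with a median log2 change of -0.01, against 7354 higher, 7615 lower and a median of -0.0019 over all tested genes.

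The samples bounded the changes more tightly for these genes than for most. For 71 of the 76 (93.4%) the 95% interval did not reach 1.5-fold either way, and for 59 (77.6%) it did not reach 1.25-fold. Over all tested genes the shares were 80.9% and 55.5%. The median standard error on the log2 scale was 0.08 here and 0.10 over all tested genes, where levels were lower. The largest fitted difference in either direction was that of Chd7.

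Several cell type marker lists also leaned to one side by fitted value or by sum, with 0 markers past the adjusted threshold. Excitatory neuron markers summed to 232225 to 245980 in WT and 226124 to 228772 in Hetero, which do not overlap, although 4 of the 8 were higher and 4 lower by fitted value. The abundant Camk2a (-0.11, unadjusted limma p 0.028) and Slc17a7 (-0.10, unadjusted limma p 0.049) were lower with groups apart. Of 8 inhibitory neuron markers 6 were higher (median 0.07), with sums of 20865 to 22558 in WT and 22136 to 23324 in Hetero, and Pvalb differed by 0.28 (unadjusted limma p 0.012). Of 8 astrocyte markers 6 were lower (median -0.05), with sums of 177103 to 200552 and 171331 to 183944, and Slc1a3 differed by -0.18 (unadjusted limma p 0.024). All 8 microglia markers were lower (median -0.09), with sums of 11110 to 12379 and 10620 to 11593. Of 8 meningeal markers 7 were higher (median 0.27), with sums of 4159 to 6115 and 4578 to 6665. Slc47a1 among them differed by 1.08 (unadjusted limma p 0.024) with groups apart, at 215, 97.3 and 66 in WT and 255, 223 and 236 in Hetero. Of 8 markers of myelinating oligodendrocytes 7 were lower (median -0.06), with sums of 91488 to 147661 and 96859 to 126623. Except for the excitatory list, these sums overlapped between the groups, and the Hetero sums of the myelinating list lay inside the WT range. The mean log2 deviation of that list rose with sample number in both groups, at -0.31, 0.05 and 0.39 in WT and -0.26, -0.05 and 0.17 in Hetero. The part of any of these cells in the values of the chromatin genes was not tested.

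**Figure D2:**
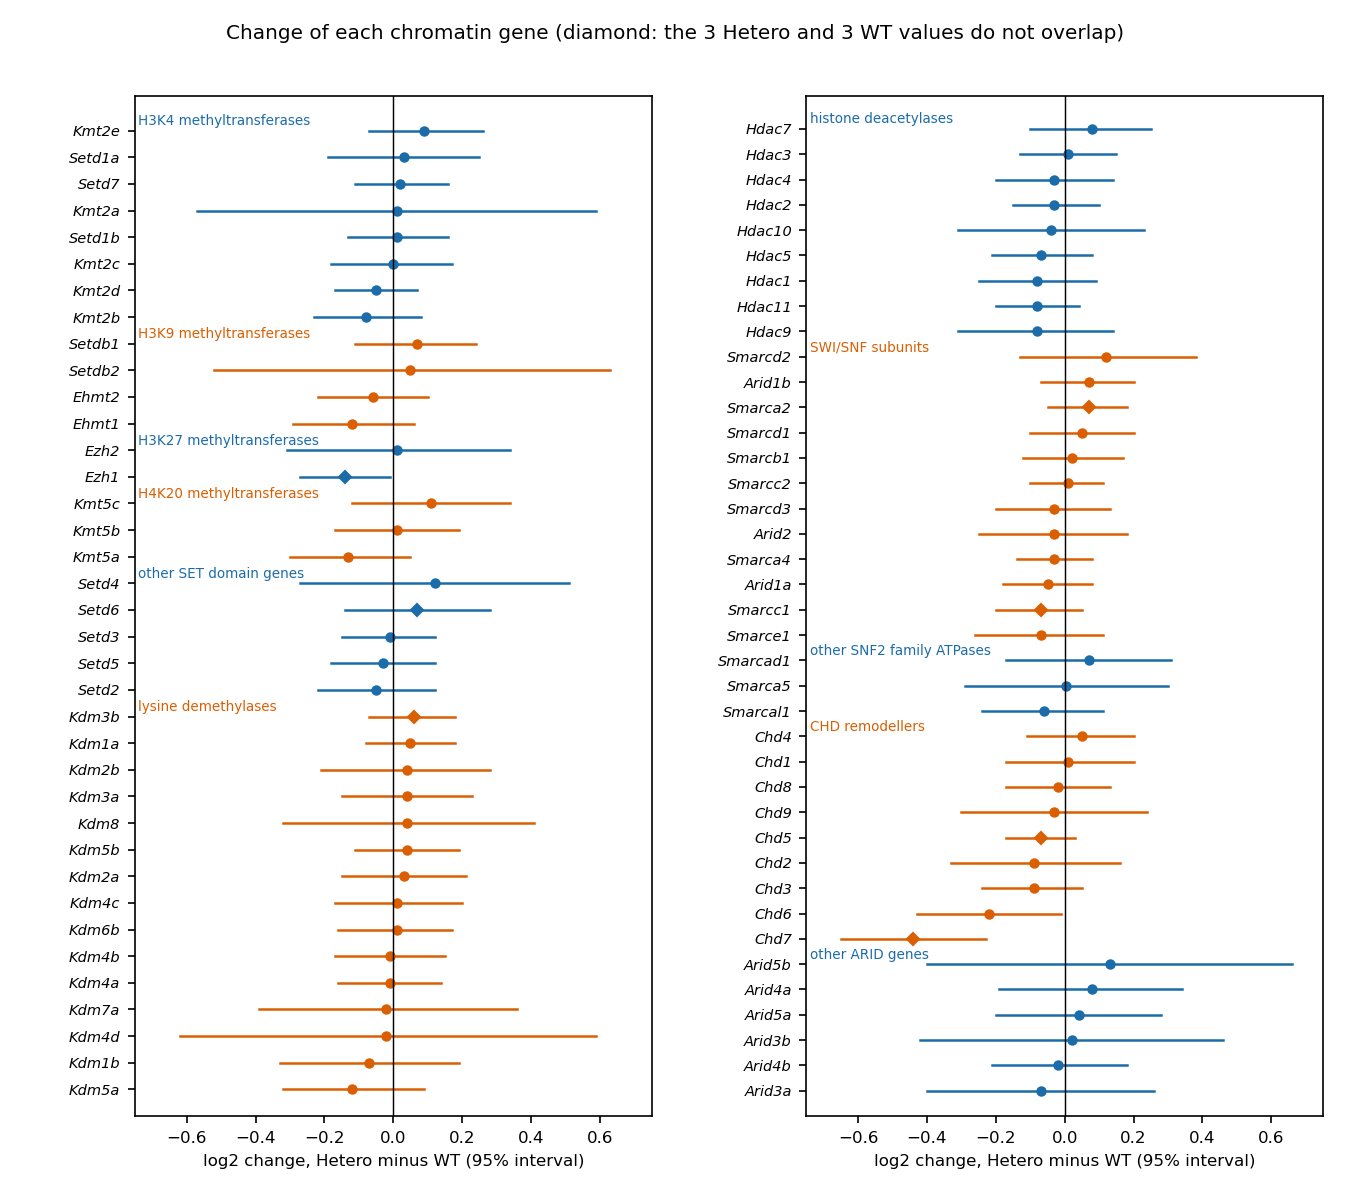
Log2 change between Hetero and WT with its 95% interval from limma for each of the 76 genes, grouped by role; diamonds mark the 7 genes whose 3 Hetero and 3 WT values do not overlap. Chd7, at -0.44, lies farthest from 0, followed by Chd6 at -0.22 and Ezh1 at -0.14.

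The CHD family joins chromodomains, which in several members read methylated H3 tails, to a SNF2-type motor. Of its 9 genes, 7 had a lower and 2 a higher fitted value in Hetero (median log2 change -0.07), and 0 passed the adjusted threshold. That split did not hold without Hetero sample 3, where it was 5 higher and 4 lower with a median of 0.01. It was 4 higher and 5 lower without sample 3 of both groups and also after trends with GC content and length were removed.

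Chd7 (chromosome 4, 8690406 to 8867659, plus strand in GRCm38), the remodeller mutated in CHARGE syndrome, read 408, 422 and 434 in WT and 335, 313 and 287 in Hetero. The lowest WT value thus lay above the highest Hetero value. The ratio of Hetero to WT was 0.739 with a 95% interval of 0.638 to 0.855, a log2 change of -0.44 with a standard error of 0.09. Its limma p was 0.001 unadjusted and 1 after Benjamini-Hochberg adjustment over all tested genes. Over the 16 alternatives the log2 change stayed between -0.49 and -0.36, the unadjusted p between 0.00089 and 0.009, and the adjusted p between 0.47 and 1.

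Chd7 is known to act with Sox10 in cells of the oligodendrocyte lineage. Markers of oligodendrocyte precursors also leaned lower in Hetero as a group, though not sample by sample. All 8 listed markers were lower by fitted value in Hetero (median log2 change -0.24), and 4 of them (Gpr17, Neu4, Cspg4 and Pdgfra) had lower values that did not overlap between the groups, beside 4.32% of all tested genes. Gpr17, a receptor of committed precursors, read 2905, 2976 and 3249 in WT and 2431, 2575 and 2683 in Hetero. Pdgfra, the receptor that defines these cells, read 2055, 2177 and 2529 in WT and 1820, 1993 and 1933 in Hetero. Sox10 itself overlapped, at 696 to 949 in WT and 691 to 947 in Hetero. The summed level of the 8 markers was 10808 to 12746 in WT and 9127 to 10921 in Hetero, which overlap. In WT both rose from sample 1 to sample 3: Chd7 read 408, 422 and 434, and the mean log2 deviation of the markers was 0.03, 0.08 and 0.22. In Hetero the orders were opposite. Chd7 fell from sample 1 to sample 3 (335, 313 and 287), while the mean log2 deviation of the markers rose (-0.27, -0.07 and 0.01). The part of these cells in the value of Chd7 was not tested, and in bulk tissue fewer cells of a type and less RNA per cell cannot be told apart. Of 8 markers of dividing cells, 5 had a lower fitted value, and all 8 overlapped between the groups.

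**Figure D3:**
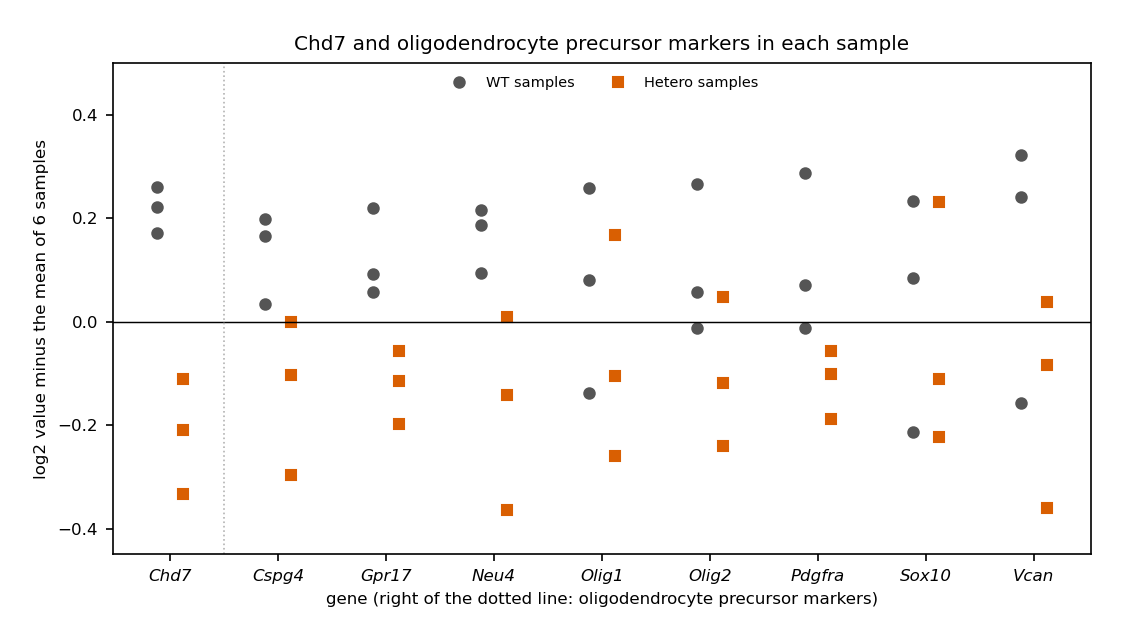
Deviation of the log2 value from the gene's mean of 6 samples for Chd7 and 8 markers of oligodendrocyte precursors; circles are WT and squares are Hetero samples. The groups are apart for Chd7, Cspg4, Gpr17, Neu4 and Pdgfra, and overlap for Olig1, Olig2, Sox10 and Vcan.

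Chd6, which forms a subfamily with Chd7, Chd8 and Chd9, read 2945, 3012 and 2362 in WT and 2479, 2420 and 2217 in Hetero. WT sample 3 lay within the Hetero values, so the groups overlapped. The log2 change was -0.22 (standard error 0.09), and the limma p was 0.045 unadjusted and 1 adjusted. Without WT sample 3 it was -0.33 with an unadjusted p of 0.0015, and without WT sample 2 it was -0.15. Chd6 lies on chromosome 2 (160946978 to 161109075, minus strand). Per kilobase it stood at 245, against 35.9 for Chd7.

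The values of Chd6 and Chd7 could be read as those of separate transcripts only if few reads fit both. The longest run of coding bases that they share exactly is shown, since it marks how far the paralogs can be told apart by a short read. It was 23 bases, within exon 16 of Chd6. Capitals mark the shared run, lower case the 20 coding bases on either side, and coordinates (GRCm38, GENCODE M21) give the capitals.
Chd6 (chr2:161013118-161013140, minus strand): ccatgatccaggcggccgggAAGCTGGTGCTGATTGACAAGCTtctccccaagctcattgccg
Chd7 (chr4:8838643-8838665, plus strand): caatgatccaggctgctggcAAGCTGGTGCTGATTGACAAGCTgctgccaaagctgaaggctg
Just beside the run the transcripts already differ at several bases. Of all 31-base words of the principal transcript, 0% of those of Chd7 and 2.92% of those of Chd6 occur in a transcript of any other gene.

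Chd3, Chd4 and Chd5 are the motor subunits of the NuRD complex, which couples remodelling to deacetylation. Chd3, needed for late steps of neuron migration in the developing cortex, read 24937, 23638 and 27681 in WT and 23695, 22820 and 24793 in Hetero. Chd4 read 5319, 5016 and 5955 in WT and 5465, 5832 and 5484 in Hetero. Chd5, which is largely neuronal, read 13324, 13206 and 13472 in WT and 13115, 12308 and 12696 in Hetero. The Hetero values of Chd5 lay below all WT values, by a log2 change of -0.07 (standard error 0.05), while those of Chd3 and Chd4 overlapped with WT. Per kilobase the order Chd3, Chd5, Chd4 held in every sample: Chd3 stood 4.32 ± 0.0299 times above Chd4 in WT and 3.93 ± 0.288 times in Hetero (SD, n = 3 each), and Chd5 stood 1.74 ± 0.133 and 1.61 ± 0.105 times above Chd4. The WT ratios of Chd3 to Chd4 (4.32, 4.35 and 4.29) lay above the Hetero ratios (4.0, 3.61 and 4.17). With the length of all annotated exons in place of the principal transcript, the ratios over the 6 samples were 4.25 for Chd3 to Chd4 and 1.98 for Chd5 to Chd4.

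Chd3 and Chd4 share the longest exact coding run among the compared pairs, 35 bases, which crosses from exon 22 into exon 23 of Chd3, so the coordinates of both genes include an intron. It is long enough for 31-base words to fit both genes, and is printed for that reason, with capitals as above.
Chd3 (chr11:69353891-69354091, minus strand): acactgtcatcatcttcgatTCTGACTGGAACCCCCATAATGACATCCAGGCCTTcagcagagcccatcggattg
Chd4 (chr6:125113560-125113904, plus strand): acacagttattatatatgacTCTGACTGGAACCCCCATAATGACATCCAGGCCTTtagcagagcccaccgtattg

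The remaining CHD genes showed no separation. Chd8, mutated in a form of autism, read 3338, 3039 and 3159 in WT and 3346, 3147 and 2920 in Hetero. Chd1, which binds H3K4 trimethylation, read 655 to 727 in WT and 648 to 735 in Hetero. Chd2, an epilepsy gene, read 1669 to 2131 in WT and 1523 to 1890 in Hetero. The range of Chd9 was 1982 to 2372 in WT and 1739 to 2339 in Hetero.

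**Figure D4:**
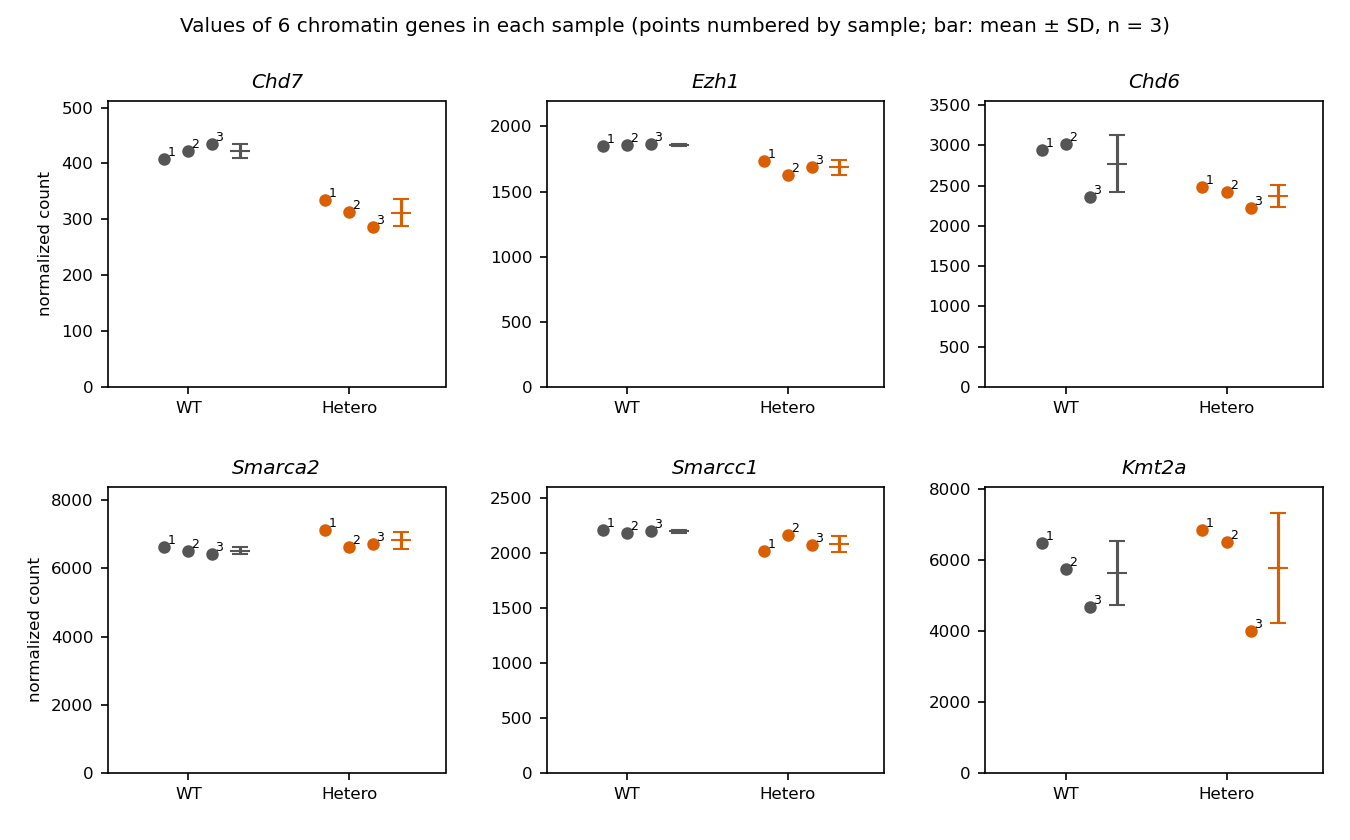
Normalized counts of Chd7, Ezh1, Chd6, Smarca2, Smarcc1 and Kmt2a in 3 WT and 3 Hetero samples; points carry the sample number and bars are means ± SD (n = 3). Chd7 and Ezh1 are apart between the groups by the widest margins, WT sample 3 of Chd6 falls among the Hetero values, and sample 3 of both groups is lowest for Kmt2a.

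Ezh1 and Ezh2 are the alternative catalytic subunits of Polycomb repressive complex 2, which methylates H3K27. Ezh2 is the form of dividing cells and Ezh1 that of differentiated cells. Ezh1 (chromosome 11, 101191115 to 101226463, minus strand) read 1848, 1860 and 1862 in WT and 1738, 1626 and 1691 in Hetero. The WT samples lay close together, and all 3 Hetero samples lay below them. The ratio of Hetero to WT was 0.907 with a 95% interval of 0.831 to 0.991, and the limma p was 0.034 unadjusted and 1 adjusted over all tested genes. Over the 16 alternatives the log2 change stayed between -0.16 and -0.11, and the unadjusted p ran from 0.023 to 0.12.

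Ezh2 read 159, 150.2 and 190 in WT and 152, 158 and 194 in Hetero, with a log2 change of 0.01 (standard error 0.15). Sample 3 was the highest of its group in both genotypes. Per kilobase Ezh1 exceeded Ezh2 by 7.5 ± 0.886 times in WT and 6.75 ± 0.896 times in Hetero (SD, n = 3 each), and the ratio over the 6 samples was 9.62 with the length of all exons. The longest run their coding sequences share exactly was 17 bases, in exon 21 of Ezh1. It is shorter than the 31-base words compared and is printed beside the near matches around it, capitals as above.
Ezh1 (chr11:101192961-101192977, minus strand): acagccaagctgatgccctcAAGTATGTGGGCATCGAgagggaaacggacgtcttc
Ezh2 (chr6:47530563-47530579, minus strand): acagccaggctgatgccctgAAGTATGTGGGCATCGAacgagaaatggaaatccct

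The H3K4 methyltransferases of the MLL and SET1 families mark promoters and enhancers. Of 8 members, 5 had a higher and 3 a lower fitted value in Hetero around a median log2 change of 0.01. The split was 6 and 2 under TMM rescaling, 6 and 2 without Hetero sample 3 (median 0.08), and 7 and 1 with trends of GC content and length removed (median 0.06). Kmt2e, which carries a SET domain without known histone methyltransferase activity, read 3634, 3388 and 3543 in WT and 3964, 3960 and 3381 in Hetero. Hetero samples 1 and 2 were above all WT samples, but Hetero sample 3 was below them, and the log2 change was 0.09 (standard error 0.07). Kmt2b read 3017, 2847 and 3345 in WT and 2913, 2796 and 2999 in Hetero (-0.08, standard error 0.07). Kmt2d, the enhancer enzyme mutated in Kabuki syndrome, read 5385, 5465 and 5595 in WT and 5057, 5507 and 5351 in Hetero (-0.05, standard error 0.05). For each of the 3 the groups overlapped.

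The other H3K4 genes overlapped too. Kmt2c, the partner of Kmt2d at enhancers, read 3208 to 3535 in WT and 3060 to 3717 in Hetero. Setd1a, a schizophrenia risk gene in humans, read 2053 to 2259 in WT and 1903 to 2476 in Hetero, and its relative Setd1b read 1317 to 1351 and 1285 to 1416. Setd7, which methylates H3K4 and non-histone proteins, was the most abundant of the 8 at 980.3 per kilobase, and Setd1b the least at 151. Setd7 read 7088 to 7341 in WT and 6734 to 7711 in Hetero.

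Methylation of H3K9 and H4K20 marks silent chromatin. Of 4 H3K9 enzymes 2 were higher and 2 lower by fitted value, and of 3 H4K20 enzymes 2 were higher and 1 lower, with 0 passing the adjusted threshold. Ehmt1, mutated in Kleefstra syndrome, read 1128, 1194 and 1321 in WT and 1194, 1069 and 1093 in Hetero. Ehmt2, its partner in the GLP and G9a heterodimer, read 6213, 7185 and 7484 in WT and 6543, 6592 and 6829 in Hetero. The log2 changes were -0.12 (standard error 0.08) and -0.06 (standard error 0.07), and the values overlapped. Per kilobase Ehmt2 stood 8.48 ± 0.387 times above Ehmt1 in WT and 8.82 ± 0.623 times in Hetero (SD, n = 3 each). Setdb1, which silences retroelements, read 1705, 1702 and 1460 in WT and 1674, 1774 and 1634 in Hetero. Setdb2 was the lowest of the H3K9 genes at 37.5 per kilobase, and its 6 values, from 77.0 to 148, varied more within groups than those of any other member.

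Kmt5a, the enzyme of H4K20 monomethylation, read 1098, 1214 and 1020 in WT and 1035, 999 and 1012 in Hetero (-0.13, standard error 0.08). WT sample 3 lay inside the Hetero values. Kmt5b and Kmt5c, which add further methyl groups, read 1561 to 1728 and 599 to 774 in WT, and 1462 to 1728 and 699.9 to 789 in Hetero. Among 5 other SET domain genes, 2 were higher and 3 lower by fitted value (4 and 1 without Hetero sample 3). Setd6, which methylates the RELA subunit of NF-kB, read 264, 259.5 and 272 in WT and 273, 277 and 285 in Hetero. The groups nearly met, and the log2 change was 0.07 (standard error 0.09). Setd2, the H3K36 trimethylase, read 2732, 2590 and 2905 in WT and 2563, 2935 and 2482 in Hetero. Setd4 read 238 to 324 in WT and 242 to 378 in Hetero. Setd5, mutated in intellectual disability, read 4599 to 4783 and 4156 to 4840. Setd3, the actin histidine methyltransferase, was the most abundant of the 5 at 1401 per kilobase and read 3714 to 4094 in WT and 3673 to 3955 in Hetero.

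The lysine demethylases comprise flavin-dependent enzymes (Kdm1a, Kdm1b) and Jumonji enzymes (the rest). Of 15 members, 9 were higher and 6 lower by fitted value, at a median log2 change of 0.01 (11 and 4, median 0.03, with trends of GC content and length removed). Kdm5a, which removes H3K4 methylation, read 1522, 1248 and 1367 in WT and 1364, 1292 and 1159 in Hetero, and the groups overlapped (-0.12, standard error 0.09). Kdm3b, an H3K9 demethylase, read 1702, 1656 and 1677 in WT and 1776, 1765 and 1702 in Hetero. Its groups were apart only by the decimals of Hetero sample 3 and WT sample 1, which round to the same value, at a log2 change of 0.06 (standard error 0.06). Kdm1a, the catalytic subunit of CoREST, was the most abundant per kilobase of principal transcript at 628 (with all exons it was 365, below Kdm4b at 491), and read 1845, 1799 and 1928 in WT and 1979, 1864 and 1917 in Hetero. Kdm6b, an H3K27 demethylase induced by neuronal activity, read 1108 to 1248 in WT and 1116 to 1236 in Hetero. The range of Kdm5b, a relative of Kdm5a, was 1732 to 1782 in WT and 1690 to 1940 in Hetero. Kdm2a and Kdm2b, which act on H3K36, overlapped as well, at 2341 to 2753 and 621 to 785 in WT and 2393 to 2752 and 690.1 to 828 in Hetero. So did the H3K9 and H3K36 demethylases Kdm4a (1682 to 1907 in WT, 1764 to 1886 in Hetero), Kdm4b (2249 to 2637 and 2303 to 2484) and Kdm4c (621 to 689.6 and 615 to 702), and the H3K9 demethylase Kdm3a (1053 to 1185 and 1026 to 1231). Kdm1b, the relative of Kdm1a, read 337 to 349 in WT, and its Hetero values of 278, 338 and 366 spread to both sides of them. Kdm8 was low, at 95.3 to 133 in WT and 102 to 122 in Hetero. Between 27.2 and 45.7 counts per sample, Kdm4d was too low for a fine comparison, and 15.9% of its 31-base words occur in other genes, most of them in the pseudogene Kdm4dl.

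Histone deacetylases of class I (Hdac1, Hdac2, Hdac3) work in corepressor complexes, those of class IIa (Hdac4, Hdac5, Hdac7, Hdac9) shuttle between nucleus and cytoplasm with neuronal activity, and Hdac11 alone forms class IV. Of 9 members, 7 were lower and 2 higher by fitted value, at a median log2 change of -0.04 and 0 passing the adjusted threshold (5 and 4 without Hetero sample 3). Hdac11 read 5380, 5614 and 5171 in WT and 5158, 5236 and 4925 in Hetero (-0.08, standard error 0.05). Only WT sample 3 lay among its Hetero values, and 24.1% of its 31-base words occur in other genes. Hdac5 read 5428, 5513 and 5824 in WT and 5020, 5196 and 5794 in Hetero, with Hetero sample 3 among the WT values (-0.07, standard error 0.06). Hdac1 read 774, 741 and 778 in WT and 670.1, 731 and 768 in Hetero, but 62.7% of its 31-base words also occur in other genes, most of them in Gm10093, so its value is uncertain. Hdac2, a negative regulator of memory in mice, read 1871, 1893 and 1992 in WT and 1891, 1835 and 1930 in Hetero. Per kilobase it stood 2.55 ± 0.0815 times above Hdac1 in WT and 2.66 ± 0.182 times in Hetero (SD, n = 3 each). Hdac3, the NCoR enzyme, read 2720 to 2829 in WT and 2618 to 2968 in Hetero, and Hdac4 read 2270 to 2541 and 2124 to 2476. Hdac7 read 1413 to 1600 in WT and 1450 to 1681 in Hetero, and Hdac10, a polyamine deacetylase, read 433 to 574 and 461 to 544. Hdac9 was the lowest of the family per kilobase at 157.

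SWI/SNF (BAF) complexes hold Smarca2 or Smarca4 as the ATPase, and swap other subunits as neurons mature. Of 12 subunits among the named genes, 6 were higher and 6 lower by fitted value, at a median log2 change of -0.01. Smarca2 (BRM) read 6622, 6504 and 6429 in WT and 7114, 6639 and 6719 in Hetero, and all Hetero values lay above the WT values. Smarcc1 (BAF155) read 2208, 2185 and 2206 in WT and 2022, 2167 and 2080 in Hetero, and all Hetero values lay below. The log2 changes were 0.07 (standard error 0.05) and -0.07 (standard error 0.06), each with a 95% interval that includes 0. Smarca4 (BRG1) read 5238, 5445 and 5340 in WT and 5165, 5134 and 5413 in Hetero, and Smarcc2 (BAF170) read 8687, 8611 and 8608 in WT and 8763, 8743 and 8493 in Hetero. Smarcc2 varied the least within groups of all 76 genes. Arid1b, the subunit most often mutated in Coffin-Siris syndrome, read 2449, 2244 and 2264 in WT and 2377, 2496 and 2413 in Hetero (0.07, standard error 0.06).

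The ratios of paralogs and alternative subunits were computed in each sample for 12 pairs, here and above, and for 3 of them the groups did not overlap. These were Smarcc2 to Smarcc1, Chd3 to Chd4 and Arid1a to Arid1b. No share over other gene pairs was computed, and some of the 12 pairs have a gene in common. Whether 3 of 12 is many therefore cannot be said. Per kilobase Smarcc2 stood 4.95 ± 0.0267 times above Smarcc1 in WT and 5.24 ± 0.202 times in Hetero (SD, n = 3 each), and the 3 Hetero ratios (5.47, 5.09 and 5.15) lay above the 3 WT ratios (4.96, 4.97 and 4.92). An exact permutation test of 3 against 3 samples cannot go below p = 0.1, so no such separation can pass a threshold of 0.05. Smarca2 stood 1.31 ± 0.0407 times above Smarca4 in WT and 1.4 ± 0.0736 times in Hetero. That order of levels rests on the length used: with all annotated exons the ratio was 0.573. Of the alternative Smarcd subunits, Smarcd1 and Smarcd3 both exceeded Smarcd2 per kilobase. Smarcd1 stood 2.05 times above Smarcd3 in WT and 2.17 times in Hetero, and Smarcd3 stood 5.0 and 4.52 times above Smarcd2. With all exons these ratios over the 6 samples were 5.11 and 2.11, against 2.11 and 4.76 with the principal transcript. Arid1a exceeded Arid1b by 2.77 ± 0.0495 times in WT (2.71, 2.81 and 2.77) and 2.55 ± 0.125 times in Hetero (2.68, 2.54 and 2.43; SD, n = 3 each). The ratio of Arid1b to Arid2, which define BAF and PBAF, was 1.17 and 1.27. Arid1a and Arid2 themselves read 4527 to 4798 and 1420 to 1589 in WT, and 4230 to 4598 and 1282 to 1652 in Hetero. Smarce1, the HMG-box subunit, read 1184 to 1457 in WT and 1228 to 1306 in Hetero. Smarcb1, the core subunit lost in rhabdoid tumours, read 1594 to 1658 in WT and 1574 to 1775 in Hetero.

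Among 3 other SNF2-type ATPases, Smarca5, the ISWI motor, read 1666, 1528 and 1277 in WT and 1706, 1539 and 1249 in Hetero. The same sample numbers were high and low in both groups, and the log2 change was 0.0037 (standard error 0.13). Smarcad1 read 717, 723 and 620.1 in WT and 739, 807 and 624 in Hetero. Smarcal1, an annealing helicase at stalled forks, was the most abundant of the 3 at 393 per kilobase and read 1131 to 1329 in WT and 1132 to 1237 in Hetero. Of 6 further ARID genes, 4 were higher and 2 lower by fitted value. Arid4a, which binds the retinoblastoma protein, read 1123, 969 and 895 in WT and 1153, 1119 and 885 in Hetero. Arid5b read 520.3, 338 and 319 in WT and 498, 472 and 313 in Hetero, with a 95% interval of the log2 change from -0.40 to 0.66. Arid4b, a relative of Arid4a, stood highest of the 6 at 245 per kilobase of principal transcript, and read 1361 to 1510 in WT and 1262 to 1564 in Hetero. Arid3a stood lowest at 36.1 per kilobase. With all exons Arid4b (84.7) lay below Arid4a (182), and Arid3a (34.8) above Arid5a (27.8). Arid3a read 174, 202 and 216 in WT and 184, 161 and 223 in Hetero. Arid3b read 244 to 403 in WT and 303 to 397 in Hetero, and Arid5a read 315 to 388 and 329.8 to 369. In none of the 6 were the groups apart.

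Sample 3 of each group stood apart for some of the long transcripts. Kmt2a (MLL1), with 16461 bases, read 6489, 5729 and 4682 in WT and 6829, 6504 and 3995 in Hetero. Its sample 3 lay below the mean of the other samples of its group by a log2 difference of -0.38 in WT and -0.74 in Hetero. Kdm7a gave -0.35 and -0.49, Smarca5 -0.32 and -0.38, and Chd9 -0.17 and -0.41. Among the genes that went the other way were Ezh2 with 2787 bases (0.30 and 0.32) and Setd4 with 1826 bases (0.05 and 0.46). Kmt2d, the longest of all at 19823 bases, gave 0.04 and 0.02, and its GC content of 58.4% was above the members' median of 51.3%. Of the 76 genes, 34 (44.7%) lay below the other samples in sample 3 of both groups, against 31.4% of all tested genes. The groups were not alike in this. By group, 38 of the 76 were lower in WT sample 3 (median log2 difference 0.0029) and 50 in Hetero sample 3 (median -0.07). Over the 14969 tested genes it was 7603 and 7416.

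Across the 76 genes the difference of sample 3, averaged over the groups, had a correlation with log2 transcript length of r = -0.50 and rho = -0.53. With GC content it was r = 0.43 and rho = 0.48. Over the 14945 tested genes with a length the values were r = -0.21 and rho = -0.31 for length, and r = 0.23 and rho = 0.33 for GC content. These correlations are over genes that share the same 6 libraries and describe those libraries only. WT sample 3 was the shallowest and Hetero sample 3 the deepest library, and the part of depth in the pattern was not tested. Without sample 3 of both groups, 42 of the 76 genes were higher and 34 lower in Hetero. With trends of GC content and length removed it was 45 and 31, the same split as without Hetero sample 3, and 0 members passed the adjusted threshold in any of these.

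**Figure D5:**
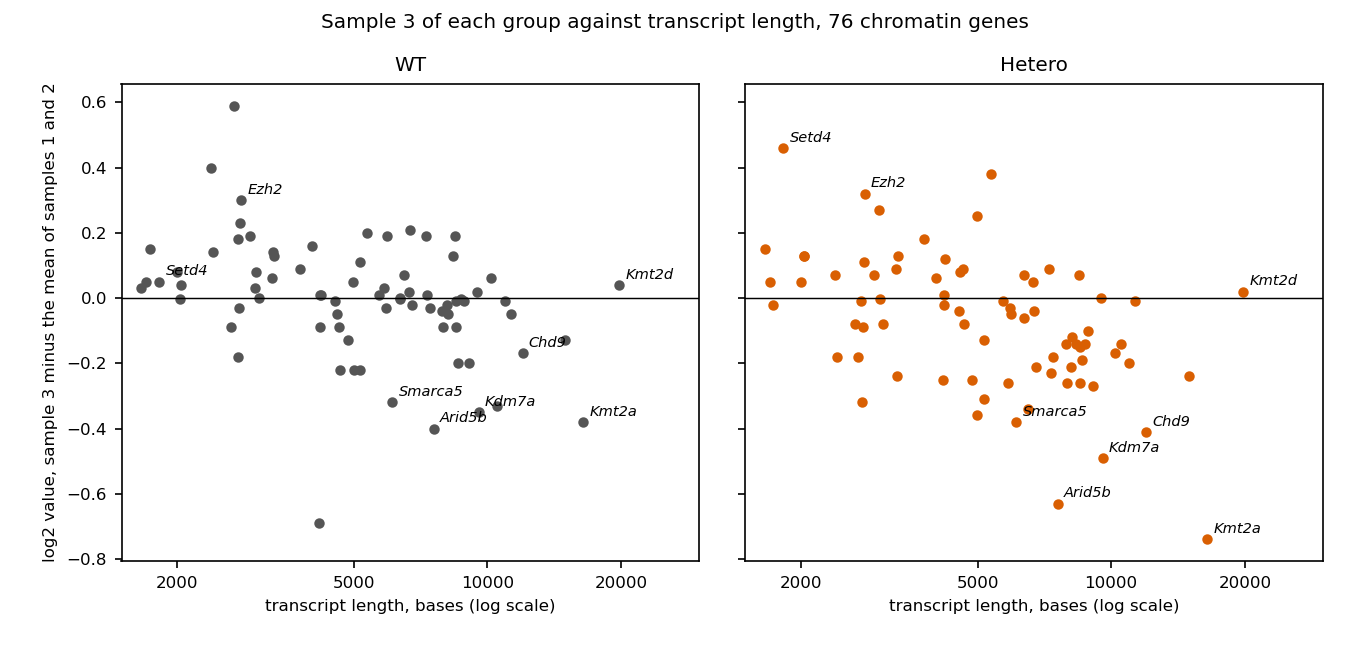
Log2 value of sample 3 minus the mean of samples 1 and 2 of its group, against transcript length on a log axis, for the 76 genes in WT (left) and Hetero (right); each point is a gene. Points fall with length in both groups, and Kmt2a is far below 0 at -0.38 and -0.74.

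Genes of partner and related families gave similar counts. Of 157 genes in 10 lists of chromatin cofactors and related families, not all of which act on chromatin, 155 were tested. Of these, 83 had a higher and 72 a lower fitted value in Hetero, and the median log2 change was 0.01. At an adjusted p under 0.05 there were 0, and at an unadjusted p under 0.05 there were 4 (2.58%, beside 3.83% of all tested genes). These were Rcor3, Dnmt3a and Smyd3, which were lower, and Phf1, which was higher. Rcor3, a scaffold of CoREST with Kdm1a, read 718, 745 and 869.6 in WT and 649, 652 and 593 in Hetero, a log2 change of -0.30 (standard error 0.09) with a limma p of 0.0093 unadjusted and 1 adjusted. Dnmt3a, the de novo DNA methyltransferase active in postnatal neurons, read 5214, 5075 and 5507 in WT and 4931, 4620 and 4872 in Hetero (-0.13, standard error 0.06). Smyd3, a SET domain methyltransferase, read 1061, 1078 and 960.2 in WT and 914, 867 and 699.8 in Hetero (-0.33, standard error 0.10). Phf1, a Polycomb complex 2 accessory protein that binds with Ezh1 or Ezh2, read 746, 663 and 659 in WT and 785, 789.6 and 758 in Hetero (0.18, standard error 0.08). For each of the 4 the groups did not overlap, as for 14 of the 155 (9.03%, beside 8.72% of all tested genes).

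By list, 15 of 25 Polycomb partners were higher and 10 lower. Of 10 COMPASS subunits and partners, which assemble with some or all of the Kmt2 and Setd1 enzymes, 8 were higher. Wdr82 (0.10, standard error 0.05) had the smallest p among them. Of 19 further BAF subunits 6 were higher and 13 lower, and Bcl7b differed by 0.12. Of 19 NuRD, CoREST, Sin3 and NCoR partners 9 were higher and 10 lower. Histone acetyltransferases and bromodomain readers were split 9 to 9 (Brpf1, -0.13), DNA methylation genes 6 to 7, other methyltransferases and H3K9 readers 8 to 9, other SNF2 and INO80 genes 10 to 7 (Ruvbl2, 0.12), sirtuins 4 to 3 (Sirt3, -0.11) and replication-independent histones 8 to 2 (H1f0, 0.09), given as higher to lower. The median log2 changes of the 10 lists lay between -0.03 and 0.04, and 0 genes of any list passed the adjusted threshold.

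Most promoter windows of these genes were rich in the dinucleotide CpG. RefSeq (GRCm38.p6) gave a start for 57 of the 76 genes, with 78 windows of 250 bases before it. Of these windows 61 (78.2%) had a GC content over 50% with a ratio of observed to expected CpG over 0.6, against 30.8% of 32851 windows of all genes. The median number of CpG was 21, against 6. The GC box GGGCGG was found on either strand in 65.4% of the members' windows and 32.7% of all, the TATA box TATAAA in 3.85% and 12.4%, and the CCAAT box in 34.6% and 33.8%. The E-box CACGTG was in 3.85% and 6.02%. A match is a description of these letters only, and a GC box itself adds CpG. The windows of all genes were taken without regard to gene type or level in this tissue. The members were protein coding and had passed a minimum level, and the part of that choice in these contrasts was not tested.

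The windows of Ezh1 and Chd6, which are among the 3 genes of smallest p, are shown to compare promoters of this kind, with each CpG in capitals. That of Ezh1 had 14 CpG and none of the motifs searched. That of Chd6 had 19 CpG with a GC box and a CCAAT box.
Ezh1 (chr11:101226464-101226713, minus strand): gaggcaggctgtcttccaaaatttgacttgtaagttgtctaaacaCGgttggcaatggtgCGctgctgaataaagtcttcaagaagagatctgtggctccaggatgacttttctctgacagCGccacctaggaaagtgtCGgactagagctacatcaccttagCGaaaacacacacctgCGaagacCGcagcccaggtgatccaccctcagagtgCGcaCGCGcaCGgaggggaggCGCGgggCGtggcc
Chd6 (chr2:161109087-161109336, minus strand): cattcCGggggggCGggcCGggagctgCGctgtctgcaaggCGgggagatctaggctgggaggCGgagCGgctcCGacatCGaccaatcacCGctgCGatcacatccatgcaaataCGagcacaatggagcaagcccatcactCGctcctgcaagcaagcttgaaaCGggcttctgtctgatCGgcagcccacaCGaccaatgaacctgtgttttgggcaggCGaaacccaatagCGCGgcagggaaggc
Of the CpG of Ezh1, 7 lie in the 50 bases nearest the start site, and of those of Chd6 3 do.

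Reads that fit several genes limit some of the values above. Of the 76 genes, 24 share no 31-base word with transcripts of other genes, among them Chd1, Chd7 and Ezh1, and 12 share at least 10% of them. Beside Hdac1 (62.7%) these were Setd1a (54.5%), Setd3 (49.4%), Smarca5 (40.9%) and Smarce1 (37.5%), whose copies are pseudogenes or overlapping gene models, Smarcd3 (29.9%, shared with Chpf2), Kdm2b (24.8%, in part with Rnf34) and Hdac11 (24.1%, most of them in Gm44002, on the other strand). The others were Kdm4d (15.9%), Kmt2e (13.0%, with Srpk2), Setdb1 (11.4%) and Smarcd1 (11.4%). The values of these genes are therefore uncertain. The words were counted on both strands although the libraries were stranded. Where the other gene lies on the opposite strand, as for Gm44002, the share can overstate that uncertainty.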

How the data were processed

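The 6 libraries, 3 WT and 3 Hetero by their titles, were stranded mRNA libraries of prefrontal cortex. The authors' deposited table holds normalized counts, treated here as a signal because they are fractional and already scaled between columns. Per the submitters' processing notes, the tools were Salmon (0.11.2), DESeq2 (1.19.11) and R (3.6.0), and the genome build was GRCm38. How the counts were scaled, and from which annotation, is not given in the sources used here. Low values clustered on multiples of a step per column: 15.5% to 27.9% of the values under 60 lay within 0.02 of one, against about 3% for a typical other step. Dividing the column total by this step gave the read estimates, but most values were not whole reads and no count test was made. Scaled values hide depth, and a given value is less precise in a shallow library.

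Positions, gene types and lengths came from GENCODE M21, in which 17875 of the 17889 identifiers were found. All 14969 genes with a mean of 10 or more entered a limma fit (version 3.58.1, R 4.3.3) of log2(value + 1), on which scale changes of low genes are understated. Trend and robust options were on, tests were two-sided, p-values were adjusted by Benjamini-Hochberg over these genes with a threshold of 0.05, and intervals are 95%. The procedure was tested on simulated data of this comparison with 14969 genes. It recovered 26% of 1.25-fold changes, 46% of 1.5-fold, 82% of 2-fold and 94% of 3-fold changes, and called 6 unchanged genes. The simulation changed 50 genes at each fold, which loosens the adjusted threshold, and its noise was independent between genes. In the real data 0 genes passed, and Cyfip2 at -0.57 had a limma adjusted p of 0.31. Recovery in the real data can therefore be lower than these shares.

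Values are given for the 3 genes of smallest p in each role, the highest and lowest per kilobase, fixed paralog pairs, and the gene of smallest p in every cofactor list. The other members appear by range, and Kmt2a, Kdm7a, Chd9, Setdb2, Kdm6b and the remaining members named with ranges were picked after their values were seen. The genes, roles, lists and rules were chosen with earlier results of these data known. Shared words of 31 bases were counted over all GENCODE transcripts on both strands. The alternatives tried were plain limma variances, scaling by TMM or by the median, other filters (none, or a mean of 50), other pseudocounts (0.5 and 8), a replicate block, removal of GC content and length trends by splines with 4 degrees of freedom, and omission of any sample. Omission of sample 3 from both groups and the length of all exons were chosen after the data were seen.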

Additional observations from a re-analysis of the deposited data

How the results depend on the processing

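The count of chromatin genes past the adjusted threshold was 0 under all 16 alternatives. Their median log2 change, -0.01 in the main fit, ran from -0.02 to 0.02 and took either sign. In each it moved by less than the SD within groups (0.03) of the members' mean log2 level in single libraries. That SD is of levels, not of a difference between groups. The count over all tested genes was 1 with splines of GC content and length removed, 4 without sample 3 of both groups, and 0 to 1 when a single sample was left out. The count of chromatin genes at an unadjusted p under 0.05 was 5 (6.58%, beside 4.37% of all tested genes) without sample 3 of both groups. When a single sample was left out it was 1 to 5 (1.32% to 6.58%, beside 2.82% to 5.22% of all tested genes). In all 16 Chd7 was among them. For Cyfip2 the limma adjusted p was 0.037 with the splines (log2 change -0.55) and 0.013 without sample 3 of both groups (-0.56).

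The replicate numbers did not pair samples 1 and 2: their same-numbered deviations had correlations of -0.00503 and 0.00436 over 14969 genes. WT sample 1 correlated best with Hetero sample 2 (0.181). For sample 3 the same-numbered correlation was 0.227, the largest of any WT and Hetero samples. With the replicate block, 2 genes of all tested and 0 of the 76 passed, 3 chromatin genes had an unadjusted p under 0.05, and Cyfip2 had an adjusted p of 0.0016 at -0.57.

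Of 512 log2 changes of the 32 genes with the smallest p in their role, 492 kept their direction and 20 took the other sign, and 22 of the genes had no such case. When single samples were left out, the log2 change ran from -0.09 to 0.11 for Ezh2, -0.03 to 0.09 for Kmt5b, -0.10 to 0.13 for Smarca5, -0.01 to 0.17 for Smarcad1, -0.03 to 0.29 for Setd4, -0.12 to 0.0017 for Setd2, -0.01 to 0.10 for Setdb1, -0.19 to 0.04 for Arid3a and -0.0016 to 0.35 for Arid5b. Without sample 3 of both groups it was 0.04 for Setd2 and -0.01 for Setd4, and with the splines it was 0.06 for Kmt2d. The cause was not tested. TMM rescaling moved the median change of all genes by 0.0045 and median centring by -0.00166. Levels per kilobase depend on the length used, which turned the order of Smarca2 and Smarca4 and changed the highest gene in 3 of 11 roles (H4K20 methyltransferases, demethylases and other ARID genes) and the lowest in 3 (H4K20 methyltransferases, other SET domain and other ARID genes). Depth is estimated, not given, and counting error is largest for the low genes, such as Kdm4d, Setdb2 and Kdm8.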

Other observations

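The relatives of these genes on the sex chromosomes showed values of the same order. Kdm5c, an X-linked H3K4 demethylase, read 1854, 1590 and 1788 in WT and 1819, 1962 and 1879 in Hetero, and its Y-linked copy Kdm5d read 1448, 1412 and 1199 in WT and 1458, 1432 and 1212 in Hetero. Transcript of Kdm5d was thus present in all 6 samples, and sample 3 was its lowest in both groups. The H3K27 demethylase Kdm6a read 807 to 901 in WT and 696 to 968 in Hetero. The cytoplasmic deacetylase Hdac6 read 2165 to 2417 in WT and 2181 to 2408 in Hetero, and Hdac8 read 268 to 311 and 267 to 308. Smarca1, the ISWI motor that is enriched in neurons, read 808 to 887 in WT and 795 to 917 in Hetero. The values of each overlapped between the groups.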
